A study of Mus musculus with 21 samples.

Results

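Gene expression in epididymal fat, a visceral white fat depot beside the testis, was compared between late night and dusk in conventionally raised mice. The members were 8 of the 21 libraries of the series, chosen by arm and clock time alone: 4 late night libraries, 2 each at zeitgeber time (ZT) 18 and 22 h, and 4 dusk libraries, 2 each at ZT10 and ZT14. Zeitgeber time counts hours from lights on. All mice were male C57BL/6j, 15-16 weeks old, fed ad libitum, and conventional mice carry a gut microbiota, whereas the germ-free arm of the series was kept without microbes. The series profiled fat through the diurnal cycle in both arms. Nothing in the labels ties a library to 1 mouse of its own, so the p-values reflect only how libraries vary, which may be technical. In bulk tissue, fewer cells of a type and less RNA per cell cannot be told apart.

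Mice are nocturnal and take most of their food in the dark, and fat cells run their own circadian clock. In that clock the proteins BMAL1 (encoded by Arntl) and CLOCK, or its relative NPAS2, bind DNA elements called E-boxes and switch on the genes of their own inhibitors, the period and cryptochrome proteins and CIART. They also switch on the REV-ERB receptors, encoded by Nr1d1 and Nr1d2, which repress Arntl at ROR elements where the ROR receptors activate it. DBP, TEF and HLF, the PAR-bZIP factors, pass the rhythm on by binding D-boxes, at which NFIL3 represses.

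Total counts were 24388294 to 34570186 in late night and 27488247 to 37097857 in dusk libraries. Levels are given as CPM, counts scaled to the size of the library, and are not corrected for gene length. Every adipocyte marker was detected in all 8 libraries, and the 10 markers summed to 40461 to 52449 CPM in late night and 41190 to 47045 CPM in dusk libraries. Among 17 library measures (total count, an exon length trend and summed markers of 15 cell types and tissues), no difference between the windows passed after adjustment (2-sided exact permutation over 70 splits, smallest possible p 0.0286; smallest adjusted p = 0.607). Single libraries stood apart: markers of male accessory glands summed to 1882 CPM in dusk replicate 2 of ZT10 and to at most 19.1 CPM elsewhere, those of spermatids and testis to 189 CPM in late night replicate 1 of ZT22, and those of ciliated duct cells to 333 CPM in late night replicate 2 of ZT18. Of 12 markers of epididymal epithelium, Lcn5, Lcn10 and Spink13 were at 0 in all 8, whereas Crisp1 reached 35.2 CPM and Adam7 11.2 CPM. The 12 summed to 0.949 to 37.4 CPM in late night and 0.6 to 13.3 CPM in dusk libraries. The part of these tissues in the results below was not tested. Without those 3 libraries ZT10, ZT18 and ZT22 keep 1 library each. The counts of such a fit therefore cannot tell these tissues from the smaller number of libraries. Leaving out those 3 libraries left 1 gene past the threshold in place of 127, the endothelial gene Cldn5. All 127 kept their sign and an unadjusted p under 0.05, but they had been chosen in a fit that shares the remaining libraries.

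Among the genes that passed the test, clock genes differed most. Arntl was 6.63-fold higher late at night, while Ciart and Dbp were 7.52-fold and 7.2-fold lower. Of the listed chaperone genes, 8 of 24 heat shock and 7 of 23 unfolded protein response genes rose, each with its highest mean at ZT18. Of 19757 genes tested, 64 (0.324%) were higher and 63 (0.319%) were lower at late night, at an adjusted p under 0.05, so 0.643% passed in all (edgeR's quasi-likelihood test, Benjamini-Hochberg adjustment over all genes tested, as for every adjusted p of a gene below). The median log2 fold change over all genes tested was 0.01, and fold changes are late night over dusk throughout. The 4 late night libraries all lay above the 4 dusk libraries in 477 genes (2.41%) and all below in 542 (2.74%). Among the called genes this separation held for 49 of the 64 higher and 54 of the 63 lower.

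The changes were mostly modest. Of the higher genes, 6 exceeded 2-fold and 31 exceeded 1.5-fold, with a median log2 fold change of 0.56. Of the lower genes, 9 exceeded 2-fold and 28 exceeded 1.5-fold, with a median of -0.50. Among the 4 times, 44 of the 64 higher genes had their highest mean at ZT18 and 20 at ZT22. The lower genes split the other way, with the lowest mean at ZT18 in 21 and at ZT22 in 42. The calls rested on few libraries: 8 of the 127 (Dbp, Camta1, Hlf, Per3, Ank2, Arntl, Txndc15 and Creld2) passed in each fit without 1 of the 8 libraries, 15 passed in none of those fits, and all 127 kept their sign and an unadjusted p under 0.05 in every one. Because the 127 were chosen with the same libraries, the kept signs and unadjusted p-values are no separate support. The count of higher genes ran from 5, without either replicate 1 or replicate 2 of ZT22, to 151 without replicate 2 of ZT18. The count of lower genes ran from 6 without replicate 2 of ZT22 to 99 without replicate 2 of ZT18.

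**Figure D1:**
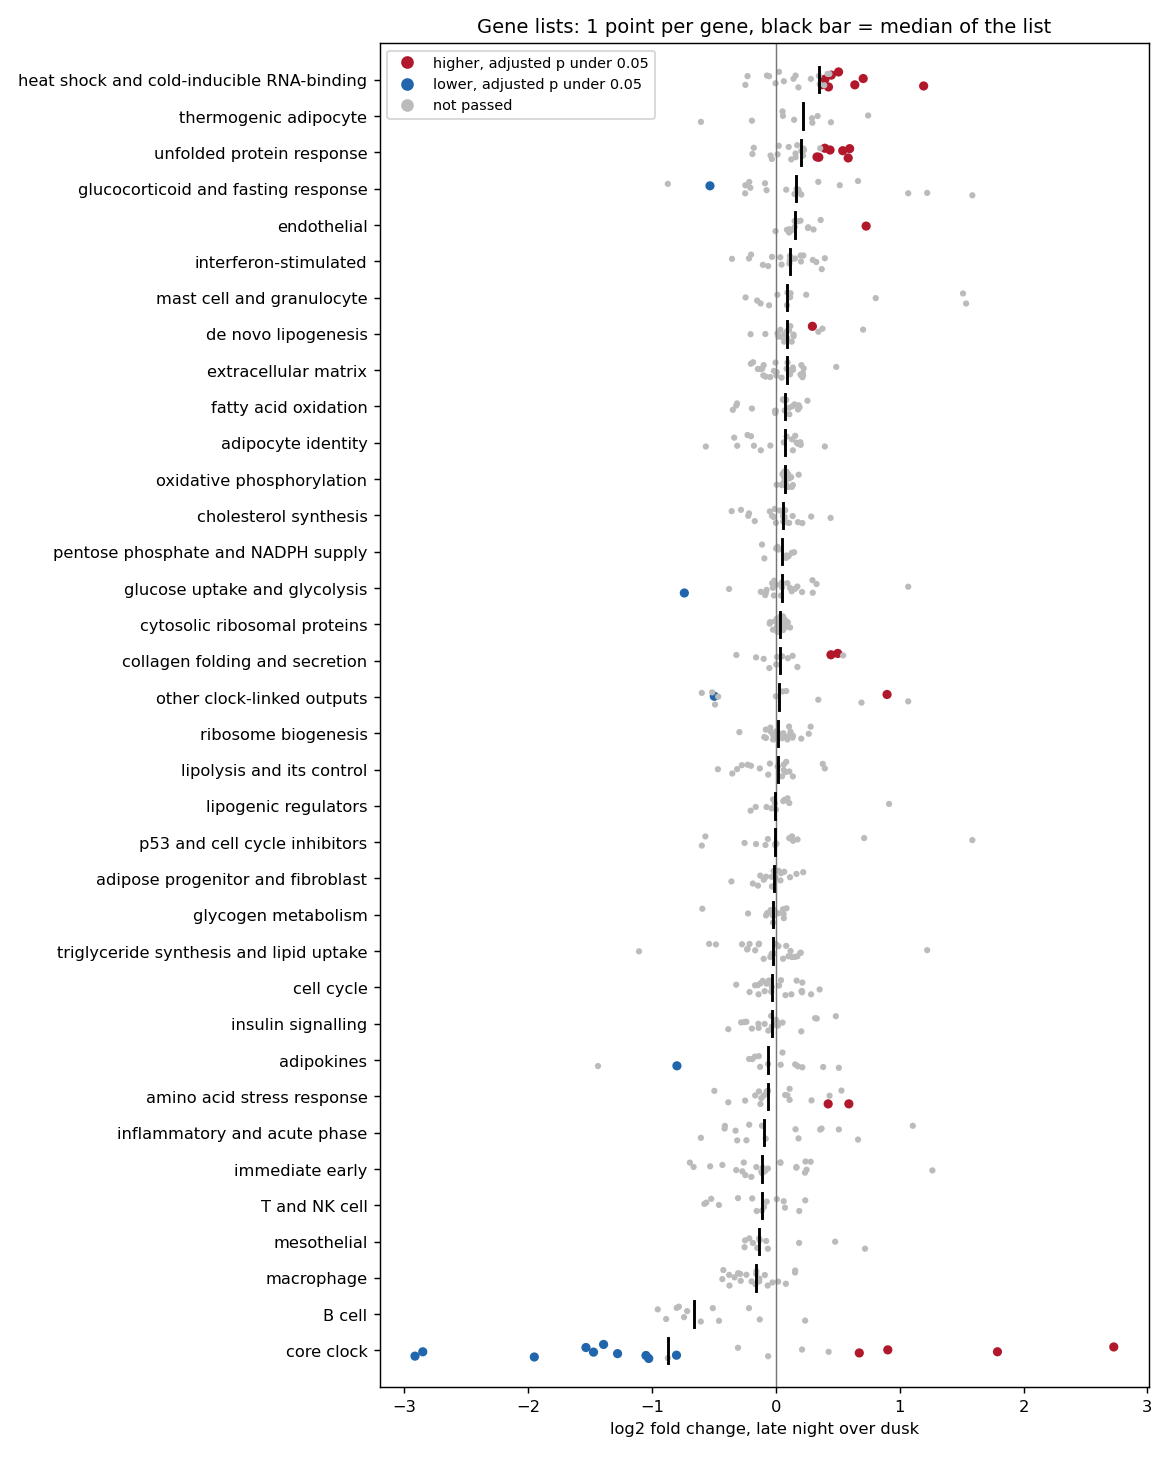
Log2 fold change of late night over dusk (x axis) for the tested members of each gene list shown (y axis), 1 point per gene. Lists are ordered by their median, drawn as a black bar, and not every list tested need be shown. Red points are genes called higher, blue points genes called lower and grey points genes that did not pass; called genes gather in the core clock (4 higher, 10 lower), heat shock (8 higher) and unfolded protein response (7 higher) lists.

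Of the 19 core clock genes, all tested, 4 were higher, 10 were lower and 5 did not pass, against 0.643% called among all genes. The clock list's median log2 fold change was -0.87. Lists of tissues that stood out in single libraries had medians larger in size, with no gene called. The median was 2.33 for spermatid and testis (12 of 12 positive) and 1.045 for ciliated duct (15 of 15 positive). For male accessory gland it was -4.24 (0 of 6 positive). Without replicate 2 of ZT22 the clock counts were 1 higher and 4 lower, and without the 3 libraries named above 0 and 0. DESeq2 called 5 higher and 12 lower. The promoters of the 2 called clock genes with the highest and the 2 with the lowest log2 fold change are shown because the factors named above act at such elements. The windows run from 250 bases before to 50 bases after the RefSeq start (build GRCm38.p6), 5′ to 3′ on the gene's strand, for Arntl (the second of 2 entries, chr7:113207261-113207560, plus strand), Npas2 (chr1:39194022-39194321, plus), Dbp (chr7:45704997-45705296, plus) and Ciart (chr3:95882179-95882478, minus). Capitals mark exact matches, on either strand, to the E-box CACGTG or to TNGGTCA. The latter, in which N is any base, is a loose pattern for the core of a ROR element.
Arntl: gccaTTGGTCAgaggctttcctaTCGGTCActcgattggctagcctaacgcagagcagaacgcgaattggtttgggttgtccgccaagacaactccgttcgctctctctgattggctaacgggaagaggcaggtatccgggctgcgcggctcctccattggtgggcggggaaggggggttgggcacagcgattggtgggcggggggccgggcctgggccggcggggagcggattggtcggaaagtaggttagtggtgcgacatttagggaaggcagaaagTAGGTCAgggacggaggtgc
Npas2: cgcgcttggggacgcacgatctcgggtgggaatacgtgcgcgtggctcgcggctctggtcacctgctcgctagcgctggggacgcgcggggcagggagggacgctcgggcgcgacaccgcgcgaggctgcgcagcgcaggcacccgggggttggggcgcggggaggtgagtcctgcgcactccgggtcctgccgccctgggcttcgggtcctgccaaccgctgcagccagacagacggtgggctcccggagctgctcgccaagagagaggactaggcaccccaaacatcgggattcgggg
Ciart: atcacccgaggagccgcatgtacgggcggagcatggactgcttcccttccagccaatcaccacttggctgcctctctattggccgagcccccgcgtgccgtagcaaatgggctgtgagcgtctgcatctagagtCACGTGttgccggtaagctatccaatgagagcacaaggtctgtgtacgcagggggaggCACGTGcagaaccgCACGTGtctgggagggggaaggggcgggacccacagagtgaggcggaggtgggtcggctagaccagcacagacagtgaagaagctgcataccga
Dbp: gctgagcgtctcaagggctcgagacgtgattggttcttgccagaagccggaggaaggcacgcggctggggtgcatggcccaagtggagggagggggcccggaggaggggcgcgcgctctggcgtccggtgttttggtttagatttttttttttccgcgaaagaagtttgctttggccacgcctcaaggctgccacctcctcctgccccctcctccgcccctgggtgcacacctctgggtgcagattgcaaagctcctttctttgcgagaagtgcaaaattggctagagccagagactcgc

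The Ciart window held 3 E-box matches and the Arntl window 3 ROR element matches, while the Npas2 and Dbp windows held neither, nor the D-box TTANGTAA. The other Arntl entry starts upstream of the one printed and holds 2 of the same matches (TTGGTCA and TCGGTCA). Among 32851 promoter windows of this length, 7.15% held CACGTG, 11% held TNGGTCA and 2.32% held TTANGTAA. Of the 16 core clock genes with an entry, 5 held an E-box, 5 the pattern TNGGTCA and 1 (Per3) a D-box. A match is a run of letters in the window, not a bound site.

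Among the activators, Arntl had 31.4 and 21.4 CPM at ZT18 and 30.9 and 29.6 CPM at ZT22, against 3.62 and 3.21 CPM at ZT10 and 3.02 and 7.68 CPM at ZT14. All 4 late night libraries lay above all 4 dusk libraries, and the highest dusk value was replicate 2 of ZT14. The log2 fold change was 2.73 (SE 0.25, adjusted p = 0.0071). Npas2, the alternative partner of BMAL1, had 3.51 and 2.1 CPM at ZT18 and 5 and 3.59 CPM at ZT22, against 1.15 and 0.704 CPM at ZT10 and 0.928 and 1.25 CPM at ZT14. The windows did not overlap, the level stayed low throughout, and the log2 fold change was 1.79 (SE 0.25, adjusted p = 0.021). Clock itself moved less, with 205 and 175 CPM at ZT18 and 203 and 205 CPM at ZT22, against 109 and 128 CPM at ZT10 and 120 and 138 CPM at ZT14 (log2 fold change 0.67, adjusted p = 0.00969). Its windows did not overlap either. The Clock call was lost without replicate 1 or replicate 2 of ZT22 (adjusted p up to 0.0562), and that of Npas2 in 7 of the 8 fits without 1 library (adjusted p up to 0.107).

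The inhibitors of BMAL1 and CLOCK did not move as one. Ciart had 0.449 and 0.912 CPM at ZT18 and 0.955 and 0.633 CPM at ZT22, against 5.64 and 9.1 CPM at ZT10 and 4.61 and 3.81 CPM at ZT14. Every late night value was under 1 CPM and no window overlapped the other (log2 fold change -2.91, SE 0.29, adjusted p = 0.00793, and 0.0521 without replicate 2 of ZT22). Per3 had 110 and 119 CPM at ZT18 and 74.8 and 101 CPM at ZT22, against 245 and 260 CPM at ZT10 and 251 and 217 CPM at ZT14, without overlap (log2 fold change -1.28, SE 0.12, adjusted p = 0.0071). Per2 behaved differently within the late night window, at 110 and 82.1 CPM at ZT18 but 13.6 and 18.3 CPM at ZT22, against 54.1 and 54.6 CPM at ZT10 and 93 and 78.5 CPM at ZT14. Its windows overlapped: the ZT18 values lay among or above those of ZT14, and ZT22 lay below every dusk library. The averaged log2 fold change of -0.80 (adjusted p = 0.0301) turned to 0.49 (adjusted p = 0.167) when ZT22 was left out of the contrast, and the call was also lost in 6 of the 8 fits without 1 library (adjusted p up to 0.132). Per1 had 53.2 and 35.6 CPM at ZT18 and 31.1 and 33.4 CPM at ZT22, against 63.4 and 63 CPM at ZT10 and 68.8 and 82.5 CPM at ZT14. The windows did not overlap, but the log2 fold change of Per1 missed the threshold at -0.87 (adjusted p = 0.0584, 1.9e-05 with DESeq2 and 0.0425 with the replicate block).

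Bhlhe40 and Bhlhe41 (DEC1 and DEC2), repressors that compete at E-boxes, were both lower at late night. Bhlhe40 had 15.5 and 28.9 CPM at ZT18 and 13.2 and 14.8 CPM at ZT22, against 43.8 and 67.5 CPM at ZT10 and 44.9 and 48.8 CPM at ZT14 (log2 fold change -1.53, adjusted p = 0.0215). Bhlhe41 averaged 11.3 ± 3.56 CPM at late night and 30.3 ± 9.63 CPM at dusk (SD, n = 4 each; log2 fold change -1.39, adjusted p = 0.0301). Neither gene overlapped between the windows, and leaving out 1 library ended the calls in 5 of 8 fits for Bhlhe40 and 7 for Bhlhe41 (adjusted p up to 0.115 and 0.143). The cryptochromes did not pass: the log2 fold change was 0.43 for Cry1 (adjusted p = 0.128) and -0.06 for Cry2 (adjusted p = 0.866).

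The REV-ERB genes were lower at late night, with different courses. Nr1d1 had 5.03 and 8.87 CPM at ZT18 and 38.2 and 31.8 CPM at ZT22, against 112 and 85.6 CPM at ZT10 and 40.2 and 34.2 CPM at ZT14. The ZT22 values overlapped those of ZT14, the ZT18 values lay far below all others, and ZT22 exceeded ZT18 by a log2 fold change of 2.31 (adjusted p = 0.0216). Over the windows the log2 fold change was -1.95 (SE 0.20, adjusted p = 0.00808, and 0.0521 without replicate 2 of ZT22). Nr1d2 had 37.7 and 60.4 CPM at ZT18 and 57.8 and 59.4 CPM at ZT22, against 164 and 175 CPM at ZT10 and 148 and 112 CPM at ZT14. Its windows did not overlap (log2 fold change -1.47, SE 0.16, adjusted p = 0.00969, up to 0.0562 without replicate 2 of ZT10 or either replicate of ZT22). Rora, which encodes an opposing ROR receptor, did not pass (log2 fold change -0.30, adjusted p = 0.086) although its windows did not overlap.

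The 3 PAR-bZIP genes fell together. Dbp had 10.6 and 21.3 CPM at ZT18 and 12.7 and 14.4 CPM at ZT22, against 134 and 139 CPM at ZT10 and 99.3 and 66.4 CPM at ZT14. The lowest dusk library held more than the highest late night one (log2 fold change -2.85, SE 0.22, adjusted p = 0.0054). Tef had 183 and 217 CPM at ZT18 and 133 and 168 CPM at ZT22, against 350 and 387 CPM at ZT10 and 365 and 332 CPM at ZT14 (log2 fold change -1.05, adjusted p = 0.00885, and 0.0512 without replicate 2 of ZT10). Hlf had 17.1 and 17.7 CPM at ZT18 and 8.25 and 10.7 CPM at ZT22, against 24.6 and 27.5 CPM at ZT10 and 28.3 and 24.5 CPM at ZT14 (log2 fold change -1.02, adjusted p = 0.0071). Hlf was lower again at ZT22 than at ZT18, by a log2 fold change of -0.87 (adjusted p = 0.0371). None of these genes overlapped between the windows. Nfil3, the opposing repressor, had 20.2 and 19.8 CPM at ZT18 and 7.72 and 7.1 CPM at ZT22, against 3.78 and 3.44 CPM at ZT10 and 9.97 and 13.4 CPM at ZT14. It was highest at ZT18, its ZT22 values lay below those of ZT14, and the averaged log2 fold change was 0.90 (adjusted p = 0.0113, up to 0.0724 without 1 of 4 libraries).

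**Figure D2:**
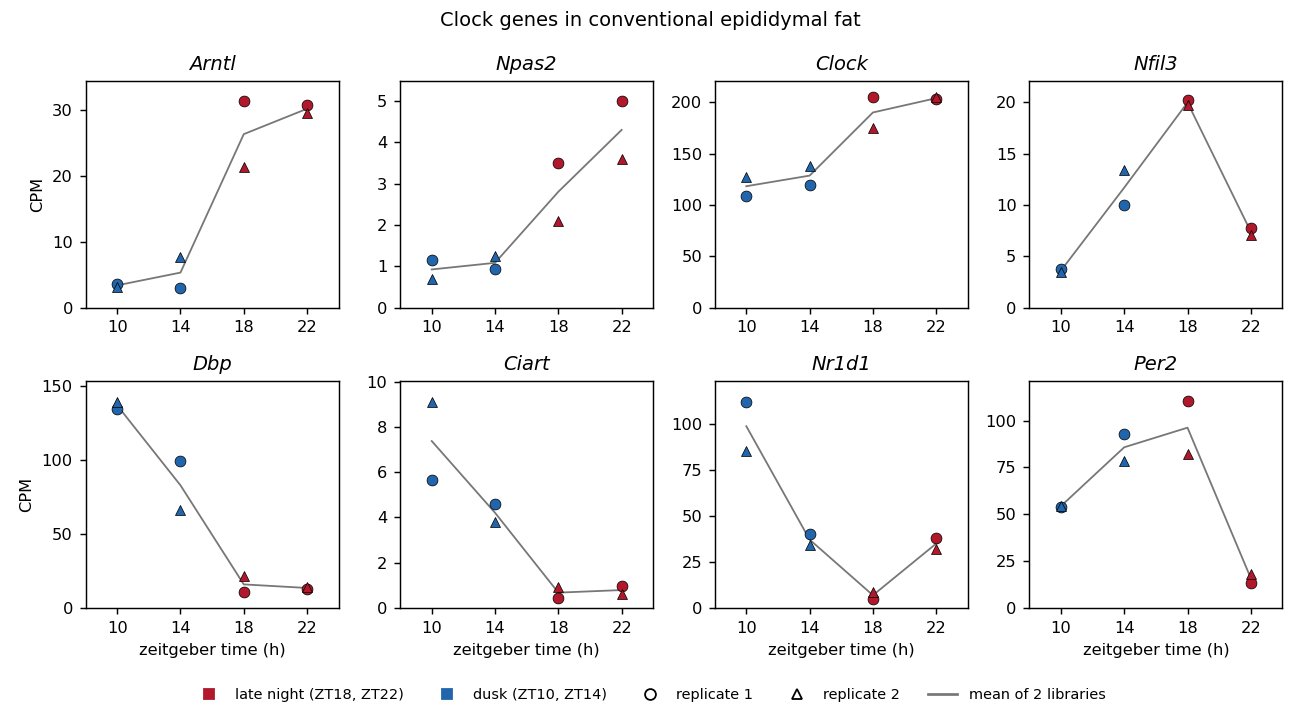
Level of 8 clock genes in CPM, counts scaled to library size (y axis), by zeitgeber time in hours (x axis) in the 4 late night libraries (red) and the 4 dusk libraries (blue), with replicate 1 as circles, replicate 2 as triangles and the mean of the 2 libraries of a time as a grey line. Arntl, Npas2 and Clock are high and Dbp and Ciart low at both late night times, whereas Nfil3 and Per2 are high at ZT18 and low at ZT22, and Nr1d1 is lowest at ZT18.

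Because Per2, Nr1d1 and Nfil3 differed within the late night window, ZT22 was also compared with ZT18, a comparison chosen after the data were seen. Of 19757 genes, 13 (0.0658%) were higher and 71 (0.359%) lower at ZT22. In the core clock list, 1 gene was higher (Nr1d1) and 4 were lower at ZT22, namely Per2 (log2 fold change -2.59, adjusted p = 0.00268), Nfil3 (-1.43, adjusted p = 0.0152), Cry1 (-1.07, adjusted p = 0.0286) and Hlf. The counts were 124 higher and 512 lower without replicate 2 of ZT18, 0 and 4 without replicate 1 of ZT18, 0 and 0 without replicate 1 of ZT22, and 0 and 1 without replicate 2 of ZT22.

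A second group of called genes encodes chaperones, the proteins that fold other proteins. HSP70 and HSP90 chaperones and their co-factors serve the cytosol and are known in rodents to follow the daily rhythm of body temperature, while HSPA5 (BiP) and its partners serve the endoplasmic reticulum, where their genes are induced by the unfolded protein response. Of the 24 genes in the list of heat shock and cold-inducible RNA-binding genes, 8 were higher and none was lower, against 0.324% higher among all genes, with a list median log2 fold change of 0.35. Of the 23 unfolded protein response genes, 7 were higher and none was lower, against the same 0.324%, with a median of 0.21. The all-gene median was 0.01.

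Hsph1, an HSP110 chaperone, changed most. It had 144 and 101 CPM at ZT18 and 25.6 and 27.6 CPM at ZT22, against 18.4 and 18.2 CPM at ZT10 and 37.1 and 31 CPM at ZT14. The windows overlapped: both ZT18 libraries lay far above the rest, and ZT22 lay between ZT10 and ZT14 (log2 fold change 1.19, SE 0.13, adjusted p = 0.00885, up to 0.0522 without replicate 2 of ZT10 or of ZT22). Hspa8, the constitutive HSP70 (chr9:40800984-40810087, plus strand), had 1486 and 1277 CPM at ZT18 and 864 and 809 CPM at ZT22, against 590 and 589 CPM at ZT10 and 777 and 697 CPM at ZT14. Here all late night libraries lay above all dusk libraries, ZT22 by a small margin (log2 fold change 0.71, adjusted p = 0.0164, up to 0.0841 and lost in 6 of the 8 fits without 1 library). Hsp90aa1, the inducible HSP90, had 318 and 318 CPM at ZT18 and 230 and 211 CPM at ZT22, against 186 and 178 CPM at ZT10 and 203 and 178 CPM at ZT14 (log2 fold change 0.51, adjusted p = 0.00969). Its windows did not overlap, and its call was lost without replicate 1 of ZT22 or replicate 2 of ZT10 (adjusted p up to 0.0562).

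The other called members of that list were Hspa4l, a further HSP110 relative (log2 fold change 0.64, adjusted p = 0.0134), Stip1, which links HSP70 to HSP90 (0.43, adjusted p = 0.021), Hsp90ab1 (0.45, adjusted p = 0.0277), Cacybp (0.37, adjusted p = 0.0413, and 0.055 with the replicate number as a block) and Fkbp4 (0.40, adjusted p = 0.0426). Each of these 5 calls was lost in 4 to 8 of the 8 fits that left out 1 library (adjusted p up to 0.166). Hspd1, the mitochondrial chaperonin, had a log2 fold change of 0.28 without overlap (adjusted p = 0.123), and Srsf5, a splicing factor, one of 0.00 (adjusted p = 1). Cirbp, a cold-inducible RNA-binding protein named after its values were seen, ran opposite to the chaperones within the late night window, at 19.6 and 23.2 CPM at ZT18 and 47.5 and 45.8 CPM at ZT22, against 39.1 and 46.6 CPM at ZT10 and 29.7 and 35.9 CPM at ZT14. It was higher at ZT22 than at ZT18 (log2 fold change 1.12, adjusted p = 0.016) and did not pass between the windows (-0.25, adjusted p = 0.288).

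Snord14d and Snord14e, small nucleolar RNAs that lie inside Hspa8 (chr9:40803995-40804080 and chr9:40804748-40804837), rose with it. Snord14e had 65.7 and 53.7 CPM at ZT18 and 36.6 and 35.2 CPM at ZT22, against 22 and 25.1 CPM at ZT10 and 31.1 and 27.6 CPM at ZT14, without overlap (log2 fold change 0.82, adjusted p = 0.0113). Snord14d gave 0.80 (adjusted p = 0.00969), also without overlap. Leaving out 1 library ended the call in 4 and 2 of the 8 fits (adjusted p up to 0.0562 for both). Both are annotated in stretches that Hspa8 exons of some transcripts cover, so their reads cannot be told apart from those of Hspa8 without the counting settings.

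In the endoplasmic reticulum, Hspa5 had 649 and 695 CPM at ZT18 and 422 and 417 CPM at ZT22, against 312 and 359 CPM at ZT10 and 374 and 361 CPM at ZT14. All 4 late night libraries lay above all 4 dusk libraries (log2 fold change 0.60, SE 0.07, adjusted p = 0.0113, up to 0.0564 without replicate 1 of ZT14 or either replicate of ZT22). Creld2, a secreted product of reticulum stress, had 28.3 and 31.5 CPM at ZT18 and 14.5 and 13.9 CPM at ZT22, against 13.1 and 13.6 CPM at ZT10 and 13.7 and 14.6 CPM at ZT14. Only its ZT18 libraries stood apart, at about the same level in both, and the ZT22 libraries overlapped those of ZT14 (log2 fold change 0.58, adjusted p = 0.0071). Pdia6, a disulfide isomerase, averaged 192 ± 24 CPM at late night and 150 ± 4.01 CPM at dusk (SD, n = 4 each; log2 fold change 0.35, adjusted p = 0.015, no overlap). Hyou1, an HSP70 relative of the reticulum, had 174 and 161 CPM at ZT18 and 101 and 105 CPM at ZT22, against 103 and 88.6 CPM at ZT10 and 96.8 and 98.2 CPM at ZT14 (log2 fold change 0.44, adjusted p = 0.0153), so its ZT22 values lay close to dusk. Calr (0.40), Hsp90b1 (0.33) and Sdf2l1 (0.54) also passed (adjusted p = 0.0186, 0.0243 and 0.0301). The calls of Pdia6, Hyou1, Calr, Hsp90b1 and Sdf2l1 were lost in 4 to 7 of the 8 fits without 1 library (adjusted p up to 0.153). Canx, the calnexin gene, and Xbp1, a transcription factor of the response, did not pass (log2 fold changes 0.17 and -0.04, adjusted p = 0.255 and 0.84).

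Both chaperone groups were highest at ZT18. Among the 4 times, the mean was highest at ZT18 in 20 of the 24 heat shock list genes and 21 of the 23 unfolded protein response genes, against 6140 of all 19757 genes. At ZT22, 10 heat shock list genes were lower and 1 higher than at ZT18, and 5 unfolded protein response genes were lower. With ZT18 left out of the contrast no member of either list was called, and with ZT22 left out 11 of each were higher and 1 heat shock list gene was lower. The list counts also moved with single libraries: without replicate 2 of ZT10, 0 heat shock and 2 unfolded protein response genes passed, without replicate 1 or replicate 2 of ZT22 1 of each passed, and without replicate 1 of ZT14 3 and 1 passed. Without the 3 libraries that stood apart none did. Ciliated duct markers summed to 91.9 and 333 CPM at ZT18 and 50.6 and 132 CPM at ZT22, against 50.1 and 64.1 CPM at ZT10 and 69.3 and 159 CPM at ZT14. They were highest in replicate 2 of ZT18. The called chaperone genes were mixed. Hsph1, Hspa8, Hspa4l, Stip1 and Hyou1 were highest in replicate 1 of ZT18, and Hspa5, Creld2, Pdia6 and Calr in replicate 2. Hsp90aa1 was level at 318 CPM in both, and the order in the remaining called members is not reported here. The part of duct tissue in the chaperone calls was not tested. With these markers as a covariate, 9 heat shock and 8 unfolded protein response genes were higher.

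**Figure D3:**
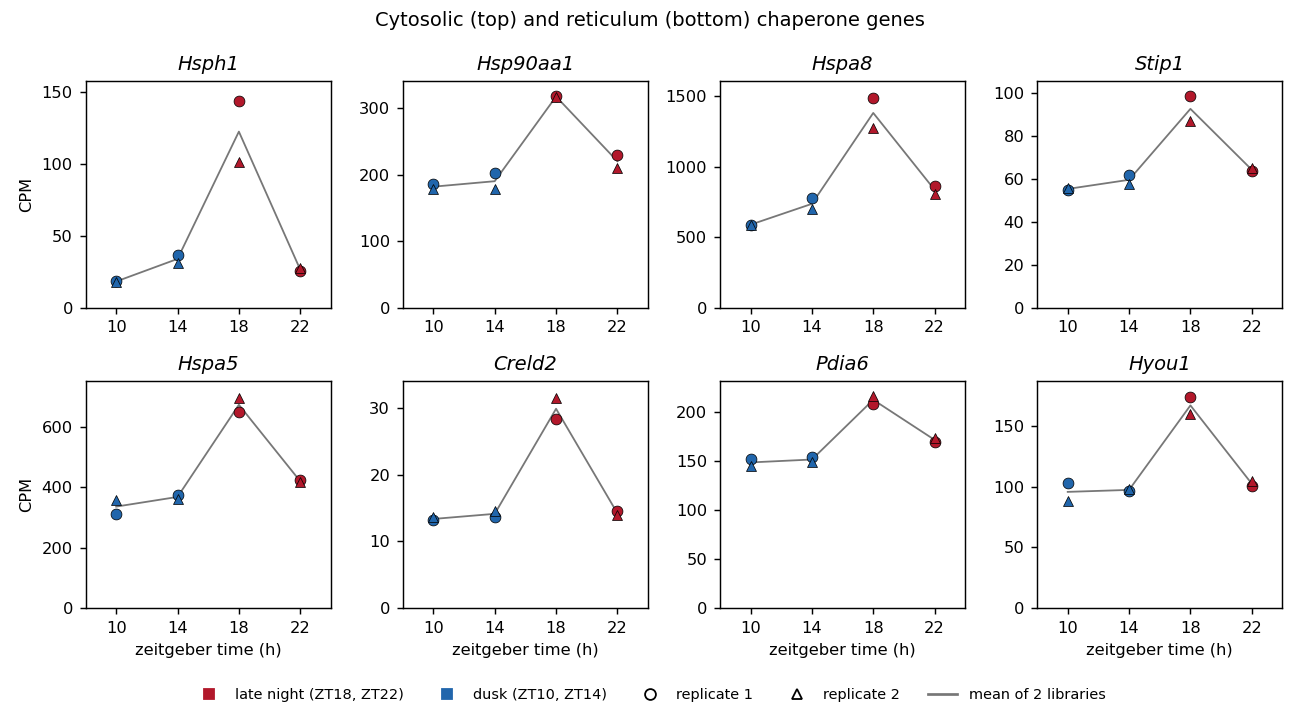
Level of 4 cytosolic (top) and 4 endoplasmic reticulum (bottom) chaperone and co-chaperone genes in CPM, counts scaled to library size (y axis), by zeitgeber time in hours (x axis), with the 4 late night libraries in red, the 4 dusk libraries in blue, replicate 1 as circles, replicate 2 as triangles and the mean of each time as a grey line. All 8 genes are highest at ZT18, and their ZT22 values lie near or only slightly above the dusk values.

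Outside these groups, the largest rises among genes with no overlap included signalling genes. Dtx4, an E3 ubiquitin ligase of the Deltex family, had 77.4 and 60.8 CPM at ZT18 and 101 and 95 CPM at ZT22, against 38 and 32.8 CPM at ZT10 and 23.6 and 41.1 CPM at ZT14 (log2 fold change 1.28, SE 0.16, adjusted p = 0.0134). Klb, which encodes beta-Klotho, the co-receptor that lets fat cells respond to the hormone FGF21, had 74.5 and 60.2 CPM at ZT18 and 112 and 94.8 CPM at ZT22, against 42.2 and 36.5 CPM at ZT10 and 38.1 and 55.9 CPM at ZT14 (log2 fold change 0.96, adjusted p = 0.0226). Both were highest at ZT22. Osgin1, an oxidative stress response gene, had 16.7 and 12.2 CPM at ZT18 and 8.63 and 9.32 CPM at ZT22, against 3.68 and 4.41 CPM at ZT10 and 4.14 and 8.11 CPM at ZT14, so replicate 2 of ZT14 came close to the ZT22 libraries (log2 fold change 1.19, adjusted p = 0.048). Ston1, an endocytic adaptor (0.96, adjusted p = 0.0285), Vwa3a (0.83, adjusted p = 0.0186), Leo1, a subunit of the PAF1 transcription elongation complex (0.81, adjusted p = 0.0113), and Gfod2 (0.77, adjusted p = 0.024) completed the higher group. Leaving out 1 library ended the calls of these 7 genes in 4 to 6 of the 8 fits (adjusted p up to 0.171).

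Cldn5, the tight junction claudin of endothelial cells, had 65.3 and 40.9 CPM at ZT18 and 60.8 and 65.4 CPM at ZT22, against 34.9 and 31.3 CPM at ZT10 and 36.5 and 37 CPM at ZT14. The windows did not overlap, although replicate 2 of ZT18 lay close to dusk (log2 fold change 0.73, adjusted p = 0.0411, and 0.0273 without the 3 libraries that stood apart). The call was lost in 6 of the 8 fits without 1 library (adjusted p up to 0.17). It was the only one of 15 endothelial genes that passed, where 0.643% of all genes passed. Of the 15, 14 had a positive log2 fold change, against 53.1% of all genes, with a median of 0.15. Pecam1 and Cdh5, 2 further endothelial markers, gave 0.36 and 0.26 (adjusted p = 0.236 and 0.548). A set of 12 endothelial markers summed to 897 to 1386 CPM at late night and 909 to 1033 CPM at dusk (2-sided exact permutation p = 0.2, adjusted p = 0.607), and their part in the Cldn5 result was not tested.

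Among the lower genes, Dusp4, a phosphatase that switches off MAP kinases, had 13.2 and 12.7 CPM at ZT18 and 16.2 and 14.5 CPM at ZT22, against 40.2 and 33.4 CPM at ZT10 and 22.5 and 19 CPM at ZT14. The late night values were close together and below all dusk values, of which ZT10 was the highest (log2 fold change -0.98, SE 0.16, adjusted p = 0.0413). Acot4, a peroxisomal acyl-CoA thioesterase, had 11 and 8.83 CPM at ZT18 and 7.11 and 8.25 CPM at ZT22, against 15.4 and 12.7 CPM at ZT10 and 21.5 and 15.6 CPM at ZT14 (log2 fold change -0.89, adjusted p = 0.0251). Mthfd1l, an enzyme of mitochondrial one-carbon metabolism (-0.94, adjusted p = 0.0382), and Rbm38, an RNA-binding protein (-0.93, adjusted p = 0.0498), were also lower without overlap. Camta1, a calmodulin-binding transcription activator, had 207 and 219 CPM at ZT18 and 171 and 187 CPM at ZT22, against 339 and 356 CPM at ZT10 and 347 and 313 CPM at ZT14 (log2 fold change -0.79, SE 0.06, adjusted p = 0.0054). Camta1 was named after its values were seen, and its call held in all 8 fits without 1 library, whereas those of the other 4 genes were lost in 5 to 8 (adjusted p up to 0.196).

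The lists of hormone and fuel genes held 1 call each, where 0.643% of all genes were called. Nrg4, a growth factor that fat secretes to the liver, had 146 and 118 CPM at ZT18 and 89 and 91.5 CPM at ZT22, against 192 and 160 CPM at ZT10 and 236 and 174 CPM at ZT14, without overlap (log2 fold change -0.80, adjusted p = 0.0272). It was the only called adipokine of 15 tested; Adipoq (adiponectin) gave 0.16 and Cfd (adipsin) 0.04 (adjusted p = 0.581 and 0.932). Pfkfb3, which makes the allosteric activator of glycolysis, had 325 and 291 CPM at ZT18 and 367 and 454 CPM at ZT22, against 801 and 738 CPM at ZT10 and 488 and 425 CPM at ZT14. Its windows overlapped between ZT22 and ZT14 (log2 fold change -0.74, adjusted p = 0.0277), and it was the only called gene of 25 in glucose uptake and glycolysis. Klf15, a factor induced by glucocorticoids, overlapped too, with 80.4 and 73.2 CPM at ZT18 and 55.9 and 46.3 CPM at ZT22, against 76 and 78.7 CPM at ZT10 and 108 and 103 CPM at ZT14 (log2 fold change -0.53, adjusted p = 0.021). These 3 calls ended in 4 to 7 of the 8 fits without 1 library (adjusted p up to 0.128). In the glucocorticoid and fasting list of 20, Klf15 was the only one called, and with the replicate block 2 were higher and 2 lower.

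Angptl4, an inhibitor of lipoprotein lipase that fasting raises, had 616 and 447 CPM at ZT18 and 610 and 669 CPM at ZT22, against 364 and 177 CPM at ZT10 and 293 and 169 CPM at ZT14. All late night libraries lay above all dusk libraries, and replicate 1 lay above replicate 2 at both dusk times. The log2 fold change of Angptl4 was 1.22 (SE 0.25) and missed the threshold (adjusted p = 0.0807). It passed with DESeq2 (adjusted p = 0.00206) and with the replicate block (adjusted p = 0.0187), and over all alternatives its adjusted p was at most 0.217. Pnpla3, a lipogenic target gene, averaged 660 ± 166 CPM at late night and 370 ± 190 CPM at dusk (SD, n = 4 each; log2 fold change 0.91, adjusted p = 0.104), and its windows overlapped.

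**Figure D4:**
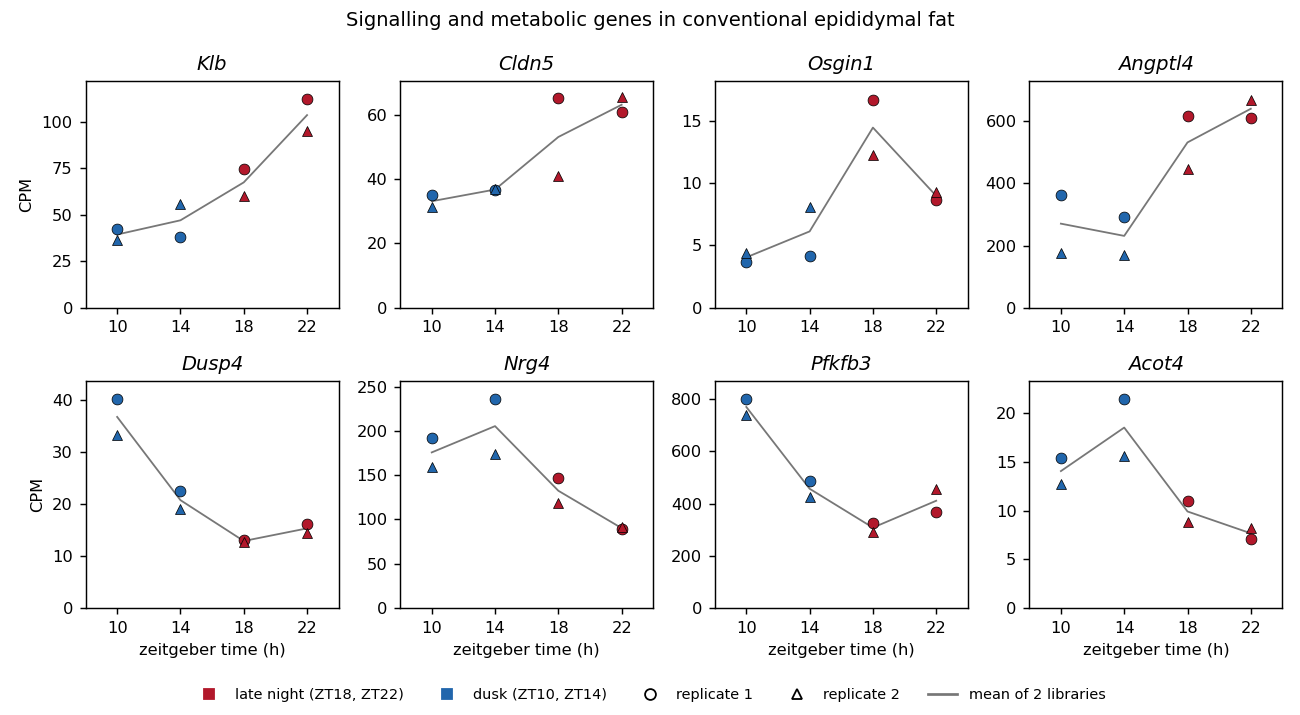
Level of 8 signalling and metabolic genes in CPM, counts scaled to library size (y axis), by zeitgeber time in hours (x axis), with the 4 late night libraries in red, the 4 dusk libraries in blue, replicate 1 as circles, replicate 2 as triangles and the mean of each time as a grey line. Klb, Cldn5, Osgin1 and Angptl4 (top) are higher and Dusp4, Nrg4 and Acot4 (bottom) lower in every late night library than in every dusk library, while Pfkfb3 overlaps between ZT22 and ZT14; Angptl4 did not pass the test.

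Of 20 de novo lipogenesis genes, 1 passed: Elovl5, an elongase of polyunsaturated fatty acids, averaged 111 ± 4.47 CPM at late night and 90.4 ± 2.16 CPM at dusk (SD, n = 4 each), without overlap (log2 fold change 0.30, adjusted p = 0.0277, lost in 7 of the 8 fits without 1 library). Scd1, the stearoyl-CoA desaturase gene, had 21079 and 21885 CPM at ZT18 and 16569 and 21796 CPM at ZT22, against 18458 and 21129 CPM at ZT10 and 26829 and 19948 CPM at ZT14 (log2 fold change -0.08, adjusted p = 0.868). Fasn, the fatty acid synthase gene, averaged 3476 ± 1724 CPM at late night and 3192 ± 926 CPM at dusk (log2 fold change 0.09, SE 0.34, adjusted p = 0.954). Both overlapped between the windows, and replicates of Fasn at 1 time differed widely. At a share of 0.643% called over all genes, lists of this size hold few calls or none. No gene passed among 12 lipogenic regulators, 26 genes of triglyceride synthesis and lipid uptake, 19 of lipolysis, 24 of cholesterol synthesis or 21 of fatty acid oxidation. List medians lay between -0.02 and 0.08 for these. DESeq2 called 1 higher and 0 lower lipogenic regulator, 1 and 1 gene of triglyceride synthesis and uptake, 1 and 1 of lipolysis, 1 and 1 of cholesterol synthesis and 1 and 2 of fatty acid oxidation. Lpl and Lipe, which release fatty acids from lipoproteins and from stored fat, gave 0.13 and -0.20 (adjusted p = 0.714 and 0.484).

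Oxidative phosphorylation genes were not called either, although all 25 had a positive log2 fold change, with a median of 0.07 against 53.1% positive and a median of 0.01 over all genes. Of the 20 insulin signalling genes none passed; Pik3r1, a regulatory subunit of PI3 kinase, had a log2 fold change of 0.49 with overlap (adjusted p = 0.171). The 2 called genes of the amino acid stress response, of 20, were Asns (asparagine synthetase; log2 fold change 0.42, adjusted p = 0.021) and Cth (cystathionine gamma-lyase; 0.59, adjusted p = 0.048, and 0.0602 with the replicate block). Asns overlapped between ZT18 and ZT14 and Cth did not. In collagen folding and secretion, Serpinh1 (HSP47, the collagen chaperone) and P4ha1 (prolyl 4-hydroxylase) passed of 14 (0.45 and 0.50, adjusted p = 0.0285 and 0.048), both with their highest values at ZT18. No gene of 30 in the extracellular matrix list passed. Over all genes tested, 0.643% passed. Of 12 further clock-linked outputs, Lonrf3 was higher (0.90, adjusted p = 0.0459) and Por, the electron donor of cytochrome P450 enzymes, lower (-0.50, adjusted p = 0.0438); Nampt, the rate-limiting enzyme of NAD salvage, gave 0.05 (adjusted p = 0.903). These 6 calls were lost in 6 to 8 of the 8 fits without 1 library (adjusted p up to 0.2).

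Immune and proliferation lists held no called gene, where 0.643% of all genes were called: 23 macrophage, 15 T and NK cell, 12 B cell, 20 interferon-stimulated, 24 immediate early and 24 cell cycle genes were tested. DESeq2 called 1 of the immediate early genes, lower. The B cell list had a median log2 fold change of -0.66 with 1 of 12 positive, and the macrophage list -0.16 with 4 of 23 positive. The summed B cell markers overlapped, at 198 to 278 CPM late at night and 220 to 285 CPM at dusk.

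To see where conventional fat differs from germ-free fat in the same contrast, the germ-free change was set against it in 1 fit of all 21 libraries. The germ-free windows held 3 libraries each, 1 at ZT18 and 2 at ZT22 against 2 at ZT10 and 1 at ZT14, and the arms shared none. Of 21517 genes, 0 (0%) passed for the difference between the arms, 1670 (7.76%) had an unadjusted p under 0.05, the smallest adjusted p was 0.118, DESeq2 called 171 and the replicate block gave 1. In germ-free fat alone, 158 genes were higher and 341 lower (2.32% in all).

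The 127 genes called in conventional fat mostly moved the same way in germ-free fat. Their sign was the same in germ-free libraries for 57 of the 64 higher and 56 of the 63 lower genes. Of these, 20 and 30 also passed there, where 2.32% of all genes passed, and none of the 127 passed in the opposite direction. The share of all genes with the same sign in both arms was not computed. Of the 14 called clock genes, 13 had the same sign and 12 passed in germ-free fat, with larger fold changes there for 12. Over all 127 called genes the fold change was larger in germ-free fat for 53. These genes were chosen for their change in conventional fat, so fold change sizes in the arms are not on equal terms. Arntl had 42.5 CPM at ZT18 and 42.1 and 58.1 CPM at ZT22 in germ-free mice, against 2.06 and 1.96 CPM at ZT10 and 3.78 CPM at ZT14, a log2 fold change of 4.06 against 2.72 in conventional mice in this fit (difference 1.34, SE 0.36, adjusted p = 0.365). Dbp gave -3.40 in germ-free and -2.85 in conventional mice (difference -0.55, adjusted p = 0.767). No difference in a clock gene passed the adjustment.

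Of the 14 called clock genes only Bhlhe40 differed in sign between the arms, with little change in germ-free fat. It had 95.3 CPM at ZT18 and 62.1 and 33.9 CPM at ZT22 in germ-free mice, against 74.4 and 86.9 CPM at ZT10 and 51.4 CPM at ZT14. Its windows overlapped in germ-free fat (log2 fold change 0.07) and not in conventional fat (-1.54), and the difference of 1.61 did not pass (SE 0.39, adjusted p = 0.354). Dusp4 gave 0.12 in germ-free and -0.98 in conventional fat (difference 1.10, SE 0.23, adjusted p = 0.272). Ranked by the p of the difference, the first 5 genes were Mid1ip1, Klf10, Rpia, Pkd2l2 and Prr5l, and none passed. Mid1ip1, which promotes fatty acid synthesis, had 155 CPM at ZT18 and 113 and 175 CPM at ZT22 in germ-free mice, against 34.6 and 26.5 CPM at ZT10 and 30 CPM at ZT14. In conventional mice it had 35.8 and 51.5 CPM at ZT18 and 36.1 and 37.1 CPM at ZT22, against 35.2 and 37.9 CPM at ZT10 and 30.9 and 49.9 CPM at ZT14. The germ-free windows lay apart and the conventional ones overlapped, with log2 fold changes of 2.30 and 0.05 (difference 2.25, SE 0.31, adjusted p = 0.118). Rpia, an enzyme of the pentose phosphate pathway, gave 0.78 in germ-free and -0.10 in conventional mice (difference 0.88, adjusted p = 0.176).

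**Figure D5:**
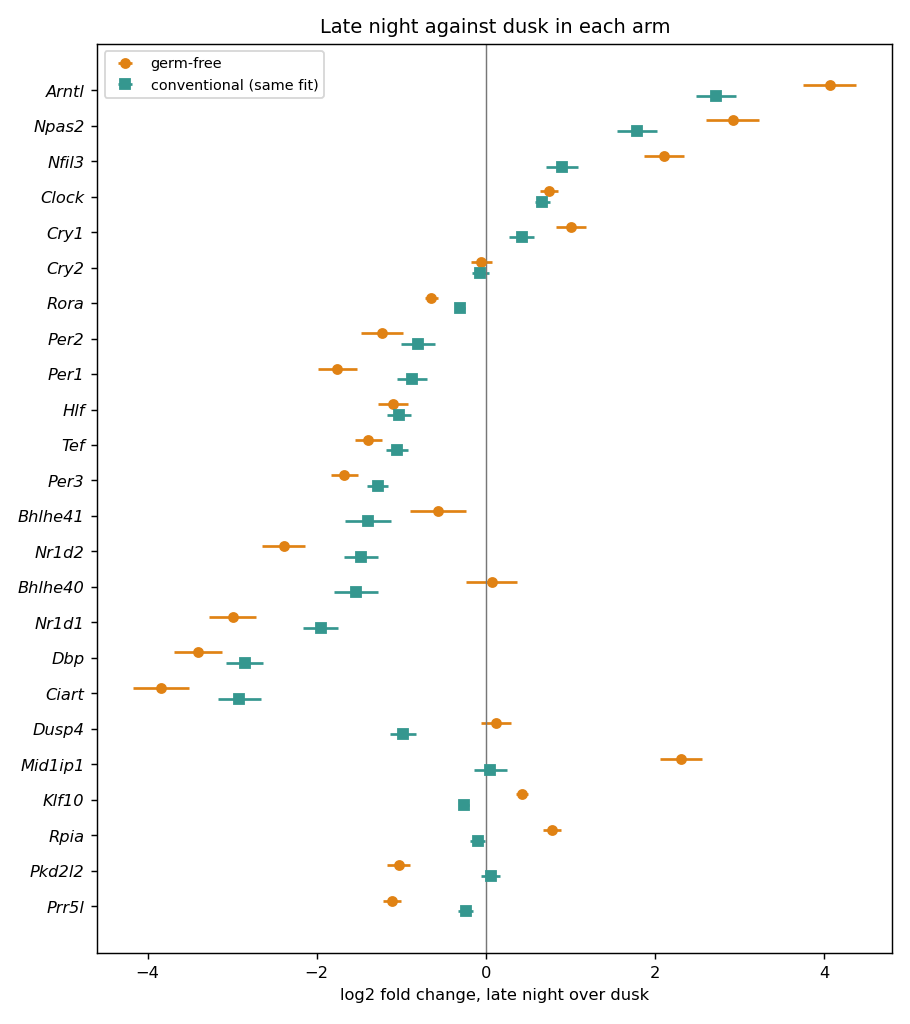
Log2 fold change of late night over dusk (x axis, bars are the standard error) in germ-free mice (orange circles, 3 against 3 libraries) and conventional mice (green squares, 4 against 4) for 18 of the 19 core clock genes, Dusp4 and the 5 genes that ranked first for a difference between the arms, all from 1 fit. Most clock genes lie on the same side of 0 in both arms and Bhlhe40, Dusp4 and Mid1ip1 lie near 0 in 1 arm only; no difference passed the adjustment.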

How the data were processed

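Total RNA of fat was sequenced from stranded, ribosomal RNA-depleted libraries, per the labels' protocols. The submitters' processing notes list STAR 2.4.0i and mm10. How reads were assigned to genes, with which strand setting and annotation, is not given in the sources used here. Raw read counts were deposited by the authors for 38087 genes and used unchanged. Reads of overlapping or near-identical genes cannot be separated with certainty. Of 126 annotated called genes, 44 have exons that overlap those of another gene on either strand, among them Nr1d1 with Thra and Dbp with Sphk2. Thra and Sphk2 lie on the other strand, so whether reads were shared there depends on the strand setting of the counting. Symbols and positions came from GENCODE M21 by gene identifier (36308 genes matched); Ciart is listed in the deposited table as Gm129 and Snord14d as SNORD14.

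Counts were analysed with edgeR 4.0.16 in R 4.3.3 (limma 3.58.1, DESeq2 1.42.0; plots with Python 3.11.15 and matplotlib 3.10.9). After filterByExpr and TMM scaling, the 12 conventional libraries were fitted with time as a 6-level factor (6 residual degrees of freedom), and the mean of ZT18 and ZT22 was contrasted with that of ZT10 and ZT14 by the quasi-likelihood F test. The difference between arms used all 21 libraries with 1 level per arm and time. P-values were Benjamini-Hochberg adjusted over all genes tested, with a threshold of 0.05. CPM values are TMM-scaled. Genes named were the 12 highest and 12 lowest fold changes among called genes without overlap and averaging a log2 CPM of 1 or more (placeholder models and pseudogenes left out), all core clock genes (1 is not reported here), up to 4 called and 2 not called genes per list and the 5 smallest p for the arms; further called chaperone and reticulum genes complete their lists, and Ank2, Txndc15, Camta1 and Cirbp were named afterwards. Libraries with the same replicate number deviated together over the 4 times compared (6 correlations, 0.132 to 0.558), so the numbers may pair them. This possible pairing comes from the data, since the labels do not say what a number marks. Over all 6 times, which the main fit holds, the correlations reached down to -0.21. The main fit had no replicate block, so its p-values take no account of such pairing, and a block was run as an alternative. The members and gene lists were chosen with earlier results of these data known. Only the main fit was tested on simulated data, drawn as independent libraries without pairing by replicate number. The fit of both arms was not. Alternatives were RLE scaling, DESeq2, no filter, a replicate block, a duct marker covariate, other sets of libraries, contrasts without 1 time and fits without 1 library.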

Additional observations from a re-analysis of the deposited data

Results flagged for a closer look

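In 17 of 206 groups of 4 libraries (8.25%), 1 library lay far from the other 3, with a gap to its neighbour larger than Dixon's critical share of the group's range. Chance gives about 1 such group in 20.

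Among late night libraries, replicate 2 of ZT18 held the extreme value of Bhlhe40 (28.85 CPM, the highest), Mid1ip1 (51.54 CPM, the highest), Clock (174.8 CPM, the lowest), Gfod2 (20.37 CPM) and P4hb (453.3 CPM). It was also highest in summed markers of epididymis epithelium (37.44 CPM) and pancreas (27.8 CPM). Replicate 1 of ZT18 was lowest in Nr1d2 (37.66 CPM) and in progenitor and fibroblast markers (1567 CPM), and highest in accessory gland markers (19.1 CPM). Replicate 1 of ZT22 was lowest in Scd1 (16569 CPM) and highest in spermatid and testis markers (189.2 CPM).

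Among dusk libraries, replicate 2 of ZT14 was highest in Arntl (7.683 CPM), Lonrf3 (9.106 CPM) and Osgin1 (8.11 CPM). Replicate 2 of ZT10 was highest in accessory gland markers (1882 CPM) and replicate 1 of ZT14 in spermatid and testis markers (74.52 CPM).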

How the results depend on the processing

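The count of calls moved widely. Higher and lower genes numbered 287 and 283 with DESeq2, 153 and 155 without the low-count filter, 110 and 91 with the duct marker covariate, 3 and 8 with 8 libraries in 2 windows, 15 and 15 with 8 libraries and a time factor, and 34 and 30 with all 21 libraries. Contrasts leaving out a time gave 5 and 19 (ZT10), 27 and 36 (ZT14), 24 and 34 (ZT18) and 88 and 42 (ZT22). Without the 3 libraries that stood apart, an alternative chosen after seeing the data, they were 1 and 0. Fits without 1 library gave 5 to 151 higher and 6 to 99 lower genes. Among named genes that passed, only the log2 fold change of Per2 changed sign, to 0.4938 when ZT22 was left out. Some named genes that had not passed, such as Cry1, Cry2 and Cirbp, also changed sign when a time was left out. The cause of these shifts was not tested.

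ZT22 against ZT18 gave 204 higher and 511 lower genes with DESeq2, 111 and 253 without the filter, 7 and 35 with all 21 libraries, and 0 to 124 and 0 to 512 without 1 library. For the difference between the arms, DESeq2 called 171 genes, no filter 2, the replicate block 1, the duct covariate 1 and fits without 1 library 0 to 14. The fits without the single germ-free library of ZT14 or of ZT18 were not run, since that time would be empty.

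With the replicate block, 71 genes were higher and 70 lower, of which 54 and 57 were also called without it. The block changed the calls of Cacybp, Cth, Per1 and Angptl4, and of no other named gene.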

Other observations

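Liver markers other than Cyp2e1, which fat also expresses, summed to 129 and 108 CPM in replicate 1 and 43.1 and 29.5 CPM in replicate 2 of the late night times ZT18 and ZT22, against 138 and 104 CPM in replicate 1 and 33.2 and 39.7 CPM in replicate 2 of the dusk times ZT10 and ZT14. The level thus followed the replicate number at all 4 times and not the window (2-sided exact permutation p between the windows = 0.943). This list was trimmed after the data were seen.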
